A study of Mus musculus with 60 samples.

Results

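Oncostatin M and IL-6 type signalling was read here through 4 genes, of the 770 on a mouse neuroinflammation panel. The members were the panel genes with the symbols Osmr, Il6ra, Clcf1 and Socs3, and all 4 were found and measured in every sample with values. The cytokines of this family share the signalling receptor gp130. A ligand such as oncostatin M, interleukin-6 or cardiotrophin-like cytokine factor 1 is bound by a complex of gp130 with a further receptor chain. JAK kinases attached to gp130 then phosphorylate STAT3, which enters the nucleus and switches on target genes. In the brain the pathway is known for the response of endothelium and glia to inflammation that begins in the body, and for the acute-phase genes that follow. Osmr is the oncostatin M chain, Il6ra the chain that binds interleukin-6, Clcf1 a secreted ligand, and Socs3 a feedback inhibitor that STAT3 induces and that blocks the JAK kinases bound to gp130.

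The samples came from 20 female Balb/C mice, 13 weeks old at collection and kept in 14 h of light and 10 h of dark. Tumor mice carried mammary tumors grown from 67NR cells, injected into mammary glands on both sides. These cells do not metastasize, and all descend from 1 tumor that arose in a Balb/cfC3H mouse. Vehicle mice received DMEM, the culture medium, by the same route. Brains were collected on day 25 at mid-dark (ZT19, hours counted from lights on) or mid-light (ZT7), with 5 mice in each of the 4 groups. All mice were perfused with saline, and hippocampus (HPC), hypothalamus (HYP) and brain stem (BS) were dissected from each brain. Values existed for 56 of the 60 samples listed. The groups therefore held 5 mice, except vehicle HYP with 3 at mid-dark and 4 at mid-light and vehicle BS with 4 at mid-dark.

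Each value is the normalized log2 level of 1 probe, and its depth in counts was unknown. Levels of different genes are not compared, since each gene has its own probe. Osmr lay between 6.58 and 7.82, Il6ra between 6.47 and 7.63, Clcf1 between 2.79 and 4.26 and Socs3 between 3.48 and 5.37, and no member reached the lowest value of the table, -0.37. Clcf1 and Socs3 had means under 5, as did 17.4% of the panel. Clcf1 was among the lowest genes: by region, 4.29% to 4.68% of the panel had a lower mean. For Socs3 that share was 13% to 16.6%. The residual SDs of Clcf1 and Socs3 within groups in HPC were 0.38 and 0.447, against a panel median of 0.181. In HYP the residual SDs of Clcf1 and Socs3 were 0.222 and 0.215, against a panel median of 0.171. The region labels matched region genes: Slc17a7, a glutamate transporter of cortical neurons, had a mean of 12.98 in HPC, 7.22 in HYP and 10.03 in BS, and Mog, a myelin gene, rose from 9.99 in HPC to 11.49 in BS. In tissue RNA of this kind, more cells of a type and more RNA per cell cannot be told apart.

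STAT3 binds palindromes of the form TTCNNNGAA. The promoter windows are shown for Osmr, the member that rose in tumor mice, and Socs3, the feedback gene. Both are RefSeq sequences of build GRCm38.p6, 300 bases long, from 250 bases before the start of transcription to 50 after it. The Osmr window is chr15:6874264-6874563 and the Socs3 window is chr11:117969317-117969616, both on the minus strand and printed 5′ to 3′ along the gene. Capitals mark a match to TTCNNNGAA.
Osmr: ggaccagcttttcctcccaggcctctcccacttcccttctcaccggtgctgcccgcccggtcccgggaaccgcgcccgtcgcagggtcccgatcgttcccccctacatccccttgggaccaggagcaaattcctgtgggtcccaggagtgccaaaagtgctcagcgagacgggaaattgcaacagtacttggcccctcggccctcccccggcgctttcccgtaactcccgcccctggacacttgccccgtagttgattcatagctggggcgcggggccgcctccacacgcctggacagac
Socs3: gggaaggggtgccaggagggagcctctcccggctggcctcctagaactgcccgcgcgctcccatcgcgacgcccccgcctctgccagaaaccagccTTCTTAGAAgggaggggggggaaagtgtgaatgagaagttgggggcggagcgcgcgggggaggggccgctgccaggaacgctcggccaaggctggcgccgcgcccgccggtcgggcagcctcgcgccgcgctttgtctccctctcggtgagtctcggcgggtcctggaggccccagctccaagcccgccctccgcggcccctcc
The Socs3 window held 1 match, TTCTTAGAA, which began 154 bases before the start. The Osmr window held no match, nor did that of Il6ra (chr3:89913147-89913446, minus strand, not printed). The palindrome reads the same on both strands, and 8.3% of 32851 mouse promoter windows of this length held at least 1. The tight form TTCCNGGAA, which is contained in the looser one, was in none of the 3 windows and in 1.15% of all windows. No window of Clcf1 was used.

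Osmr was the member that passed the test between tumor and vehicle mice. With the phases averaged, Osmr was higher in tumor BS by 0.44 log2 units (SE 0.08, 1.35-fold, n = 10 and 9), and higher over the 3 regions together by 0.35 (SE 0.06, 1.27-fold). Il6ra, Clcf1 and Socs3 did not pass the test of tumor against vehicle in any region or phase. The question of this comparison was whether a tumor outside the brain changed expression within it, and whether the hour of collection altered the answer.

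In BS at mid-dark, Osmr was 7.25, 7.27, 7.35, 7.61 and 7.67 in the 5 tumor mice and 6.9, 7.03, 7.12 and 7.22 in the 4 vehicle mice. Every tumor mouse was above every vehicle mouse, though by 0.03 at the nearest pair. In BS at mid-light, Osmr was 7.41, 7.49, 7.53, 7.64 and 7.82 in tumor mice and 6.82, 6.98, 7.05, 7.12 and 7.38 in vehicle mice. The groups again did not overlap, and vehicle mouse 10, at 7.38, was the nearest to the tumor mice. In BS, 2.34% of panel genes at mid-dark had no overlap between tumor and vehicle mice in either direction, and 1.3% had none at mid-light.

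In HPC at mid-dark, Osmr was 7.25, 7.29, 7.36, 7.45 and 7.63 in tumor mice and 6.58, 7.07, 7.09, 7.12 and 7.36 in vehicle mice. At mid-light it was 7.15, 7.32, 7.41, 7.44 and 7.67 in tumor mice and 6.85, 7.01, 7.19, 7.24 and 7.24 in vehicle mice. The groups overlapped at both phases, through vehicle mouse 28 at mid-dark and tumor mouse 5 at mid-light. No member was free of overlap in HPC, where the share of the panel was 0.779% at mid-dark with 2.08% at mid-light.

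In HYP at mid-dark, Osmr was 6.9, 7.13, 7.21, 7.31 and 7.32 in tumor mice and 6.62, 6.95 and 6.99 in vehicle mice. At mid-light it was 6.99, 7.03, 7.08, 7.25 and 7.53 in tumor mice and 6.75, 6.96, 6.99 and 7.02 in vehicle mice. Here too the groups overlapped, with tumor mouse 11 at 6.9 inside the vehicle range at mid-dark. At mid-light 1.43% of the panel, and no member, was free of overlap in HYP.

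**Figure D1:**
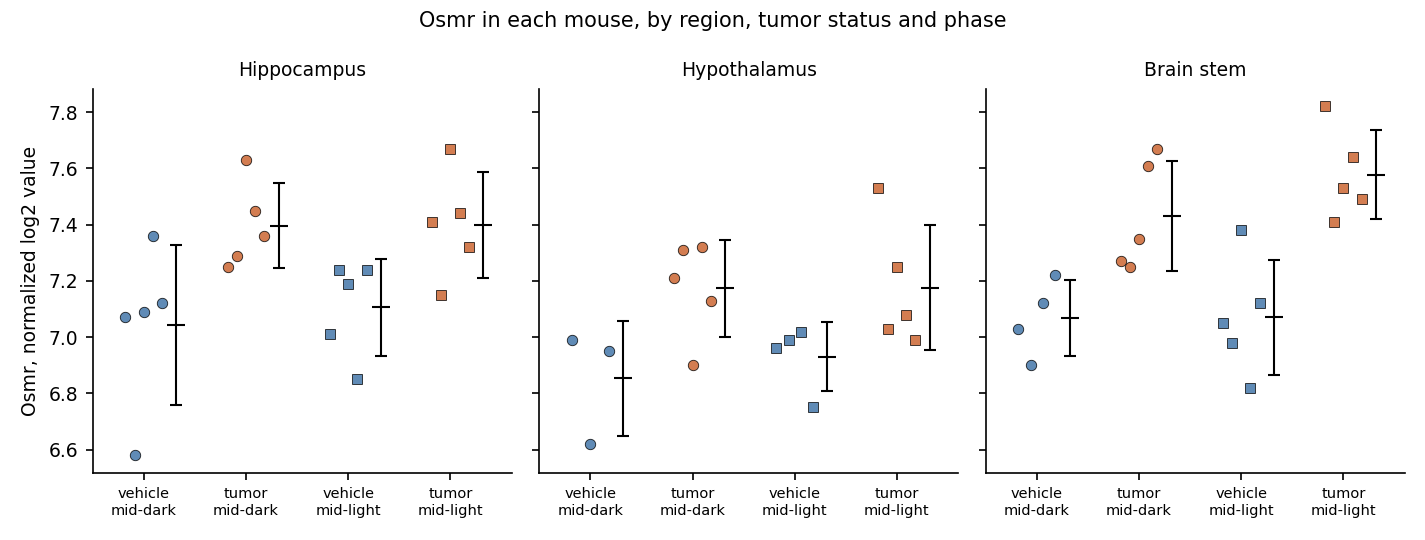
Normalized log2 value of Osmr in each mouse, in a panel for each region (blue, vehicle; orange, tumor; circles, mid-dark; squares, mid-light), with the group mean and SD beside the points. Tumor and vehicle mice do not overlap within either phase of brain stem and overlap in hippocampus and hypothalamus.

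The fit of limma across the panel put these differences beside those of all genes. With the phases averaged, 1 of 12 tests of a member in a region passed an adjusted p of 0.05, that of Osmr in BS (adjusted p = 0.00648, unadjusted p = 4.21e-05, the fifth smallest p of the panel in BS). The panel as a whole had 1.04% of its genes called in BS, 0.52% in HPC and 0.26% in HYP. Osmr differed by 0.32 in HPC (SE 0.09, 95% interval 0.14 to 0.51) with a limma unadjusted p of 0.00192 and an adjusted p of 0.166. In HYP it differed by 0.28 (SE 0.09, 95% interval 0.09 to 0.47) with a limma unadjusted p of 0.00611 and an adjusted p of 0.365. At a limma unadjusted p of 0.05, 3 of the 12 member tests passed, all of them Osmr, against 6.67% of all such tests on the panel. The members were chosen with earlier results of these data known, and the 3 regions come from the same mice. The count is therefore no independent evidence. An exact permutation test of Osmr alone, two-sided, with tumor status permuted within phase, gave p = 9.45e-05 in BS, p = 0.000976 in HPC and p = 0.00666 in HYP. These 3 values are for 1 gene, chosen with earlier results of these data known, and carry no adjustment over the panel.

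RNA purity ran lower in the tumor samples of BS. The absorbance ratio of RNA to protein was 1.34 to 1.99 in the tumor samples (median 1.88) and 1.72 to 2.01 in the vehicle samples (median 1.96). Of the 5 BS samples under 1.8, 4 were tumor samples. Without those 5 the Osmr difference in BS was 0.38 (SE 0.1) with a limma adjusted p of 0.15, so the call was lost, and with the ratio as a covariate it was 0.44 with a limma adjusted p of 0.0293. In HPC and HYP the ratios of tumor and vehicle samples had medians of 1.97 and 1.97, and of 1.96 and 1.96. A second absorbance ratio, which falls with carried-over reagents, had medians of 1.85 in tumor and 2.12 in vehicle BS, 1.98 and 2.06 in HYP, and 2.33 and 2.32 in HPC. Its lowest value was 0.44, in HYP of tumor mouse 1 at mid-light, against 1.76 in vehicle HYP. That sample also had the highest Osmr value of HYP, 7.53. The Osmr difference in HYP at mid-light was 0.25 with all mice and 0.16 to 0.29 without single mice. The lowest of these was the fit without tumor mouse 1. The part of this second ratio in the Osmr difference was not tested.

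Taken phase by phase, Osmr was higher in tumor BS by 0.51 at mid-light (SE 0.11, 1.42-fold, limma adjusted p = 0.0394) and by 0.36 at mid-dark (SE 0.12, limma adjusted p = 0.379). The mid-light call was close to the threshold and was lost in 12 of 20 fits that each left out 1 mouse (mice 1, 2, 3, 6, 9, 11, 13, 22, 28, 29, 30 and 32), in which the difference was 0.45 to 0.53 and the limma adjusted p at most 0.141. It was also lost without the 5 BS samples of low purity ratio, at 0.53 (limma adjusted p = 0.113). Those samples included tumor mice 3, 19 and 23 of mid-dark, which left tumor mice 7 and 11 at that phase. The mid-dark difference was then 0.23, so the loss of low-ratio samples fell unevenly on the phases. In HPC the Osmr differences were 0.35 at mid-dark and 0.29 at mid-light, and in HYP 0.32 and 0.25, with limma adjusted p from 0.547 to 0.907. The panel had 0.78% of genes called in BS at mid-light and 0.26% at mid-dark, 0.13% in HPC at each phase, and 0% in HYP at each phase. Of 24 member tests by region and phase, 1 passed after adjustment and 7 at a limma unadjusted p of 0.05, where the panel had 5.94%. Of these 7, 5 were Osmr, 1 was Clcf1 and 1 was Il6ra, both in HYP. These counts too are of members chosen with earlier results known, in regions of the same mice.

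The size of the Osmr difference was not shown to depend on phase or region. The difference at mid-dark minus that at mid-light was 0.06 in HPC (95% interval -0.31 to 0.44), 0.07 in HYP (-0.31 to 0.45) and -0.15 in BS (-0.49 to 0.19). None of the 12 interaction tests of the members passed limma after adjustment, 1 (Clcf1 in HYP) passed an unadjusted p of 0.05 against 4.12% of all such tests, and no gene of the panel passed after adjustment in HPC, HYP or BS (0% in each). In the fit over all 56 samples, with the mouse as a random block, Osmr was 0.35 higher in tumor mice over the 3 regions (95% interval 0.24 to 0.46, limma adjusted p = 2.77e-05), the fourth smallest p of the panel, of which 2.34% was called. The tumor difference of Osmr in HPC minus that in BS was -0.12 (95% interval -0.35 to 0.1), and in HYP minus BS -0.17 (-0.41 to 0.07). None of the 12 tests of a member's tumor difference between regions passed limma after adjustment or at an unadjusted p of 0.05. The panel had 3.29% at the unadjusted p and 0% after adjustment for each pair of regions.

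**Figure D2:**
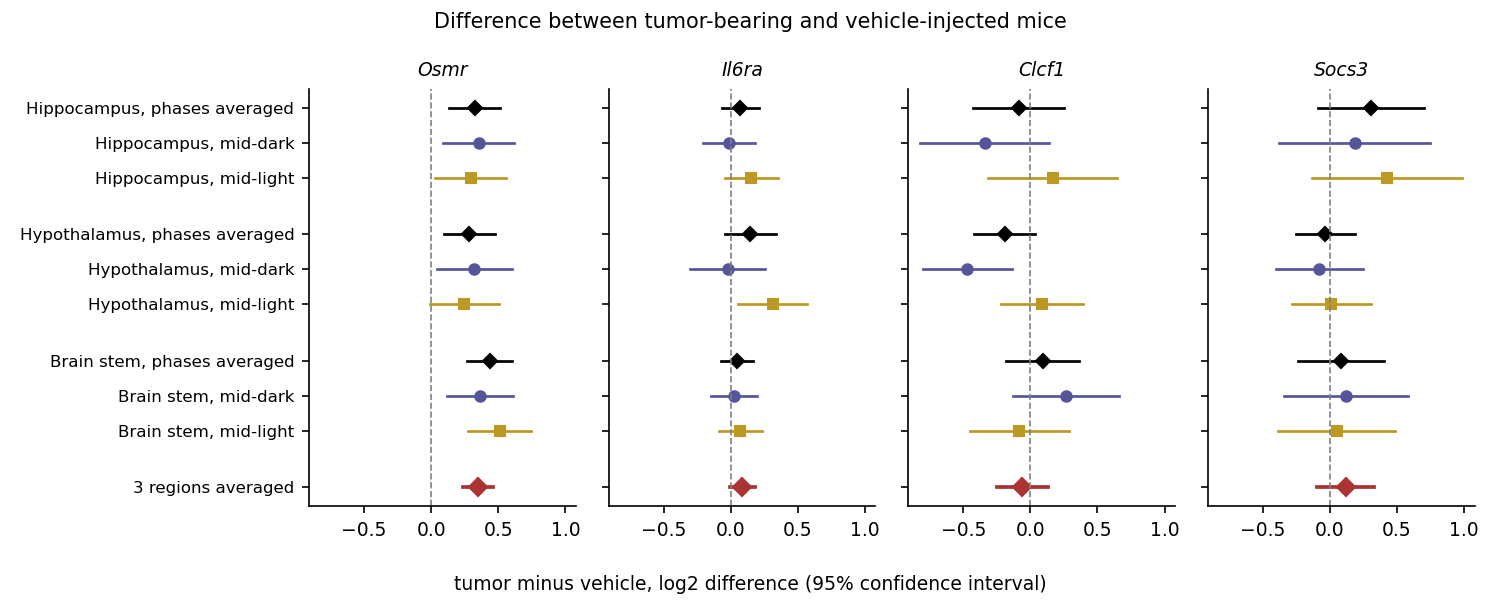
Difference between tumor and vehicle mice in log2 units (horizontal axis), with its 95% confidence interval from limma, for each member by region and phase, for the phases averaged (black), and for the 3 regions averaged (red). The Osmr estimates all lie above 0, from 0.25 to 0.51, while those of the other members lie on both sides of 0.

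Marker genes of the cell types that these tissues hold were read beside Osmr. The lists were chosen with earlier results of these data known, so their counts are no independent evidence. Over the 3 regions, 4 of 10 endothelial markers passed limma after adjustment, where 2.34% of the panel did: Ly6a, Slc2a1 and Esam were higher in tumor mice and Emcn was lower. The median difference of the endothelial list was -0.01, and that of all genes was -0.01. The summed endothelial level, in log2 units, was 11.71 to 12.01 in tumor BS and 11.71 to 11.89 in vehicle BS. None of 10 microglial markers, of 10 oligodendrocyte markers, of 10 neuronal markers or of 12 blood leukocyte markers passed, and 1 of 10 astrocyte markers did, Kcnj10, which was lower by 0.11. The summed microglial level was 12.15 to 12.66 in tumor BS and 12.21 to 12.52 in vehicle BS, and the summed leukocyte level 7.61 to 7.91 and 7.69 to 8.05. Neither of 2 choroid plexus and ependyma markers passed. Their summed level was 7.06 to 13.77 in tumor BS (median 12.25) and 6.87 to 13.77 in vehicle BS (median 10.02), and in BS their median difference between tumor and vehicle mice was -0.47 at mid-light and 1.32 at mid-dark. As a covariate in limma, Ttr, the choroid plexus marker, left the Osmr call in BS with phases averaged (0.44) and ended that at mid-light (0.51). No marker of any list was at the lowest value of the table in all samples of a group of tumor or vehicle mice. The part of the other lists in the Osmr difference was not tested.

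Il6ra, the chain through which interleukin-6 reaches gp130, separated the regions and not the tumor groups. It was highest in HPC, at a mean of 7.37 (SD 0.148, n = 20), against 6.8 in HYP (SD 0.205, n = 17) and 6.76 in BS (SD 0.112, n = 19). The difference from HPC was 0.58 log2 units for HYP (SE 0.05, 1.49-fold, limma adjusted p = 1.67e-15) and 0.61 for BS (SE 0.04, 1.53-fold, limma adjusted p = 3.67e-17). HYP and BS differed by 0.03 (95% interval -0.07 to 0.13, limma adjusted p = 0.585). Within single mice, Il6ra was higher in HPC than in HYP in 17 of 17 mice, by 0.229 to 1.02, and higher than in BS in 19 of 19, by 0.305 to 0.982. It was higher in HYP than in BS in 7 of 16 mice. Region calls were common: 71.7% of the panel was called between HPC and HYP, 76.6% between HPC and BS and 66.5% between HYP and BS.

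Between tumor and vehicle mice Il6ra differed by 0.07 in HPC, 0.15 in HYP and 0.05 in BS, with limma adjusted p of 0.926, 0.77 and 0.977. In HYP at mid-light it was 6.83, 6.86, 6.9, 6.98 and 7.25 in tumor mice and 6.51, 6.62, 6.63 and 6.85 in vehicle mice. Only vehicle mouse 30 reached the tumor values there, and the difference was 0.31 (SE 0.12, limma adjusted p = 0.689). In HYP at mid-dark the 5 tumor mice, at 6.47, 6.54, 6.78, 6.96 and 7.05, spread around the 3 vehicle mice at 6.75, 6.77 and 6.83, and the difference was -0.02. Over the 3 regions Il6ra differed by 0.09 (95% interval -0.004 to 0.18, limma adjusted p = 0.54).

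Socs3, the feedback inhibitor, was highest in HYP. Its mean was 4.91 in HYP (SD 0.196, n = 17), 4.62 in HPC (SD 0.444, n = 20) and 4.57 in BS (SD 0.322, n = 19). HYP exceeded HPC by 0.3 (SE 0.11, limma adjusted p = 0.0132) and BS by 0.35 (SE 0.11, limma adjusted p = 0.00579), while HPC and BS differed by 0.05 (95% interval -0.17 to 0.26). Within mice, Socs3 was higher in HYP than in HPC in 12 of 17 and higher than in BS in 11 of 16. The values spread more widely in HPC and BS than in HYP, where the lowest was 4.63. With the level of Ttr, a choroid plexus gene, as a covariate, both region calls of Socs3 were lost, at 0.23 and 0.29 (limma adjusted p = 0.267 and 0.136). The choroid plexus markers, summed, lay between 5.55 and 6.66 in HYP, between 6.48 and 14.72 in HPC and between 6.87 and 13.77 in BS. The covariate thus differed between the regions compared, so this fit cannot tell region from choroid plexus tissue. The part of that tissue in the Socs3 difference was not tested.

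Socs3 did not pass between tumor and vehicle mice. In HPC at mid-light it was 4.42, 4.42, 4.89, 4.92 and 5.37 in tumor mice and 3.48, 4.14, 4.4, 4.6 and 5.29 in vehicle mice. At mid-dark it was 4.46, 4.49, 4.8, 4.85 and 5.04 in tumor mice and 3.87, 4.68, 4.72, 4.72 and 4.75 in vehicle mice. The groups overlapped at both phases, and the widest spread of any member in any group was among the vehicle mice at mid-light (SD 0.661). With the phases averaged Socs3 differed by 0.3 in HPC (95% interval -0.09 to 0.7), -0.03 in HYP (-0.25 to 0.18) and 0.08 in BS (-0.23 to 0.4), with limma adjusted p of 0.832, 0.964 and 0.991. The HPC interval reached above the Osmr difference in the same region, so a Socs3 difference of that size could not be told from 0 with these mice.

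Clcf1, the ligand, did not differ past the test between regions or between tumor and vehicle mice. Its mean was 3.68 in HPC (SD 0.376), 3.68 in HYP (SD 0.259) and 3.63 in BS (SD 0.29), with limma adjusted p from 0.478 to 0.8. In HYP at mid-dark Clcf1 was 3.2, 3.32, 3.46, 3.74 and 3.78 in tumor mice and 3.87, 3.98 and 4.07 in vehicle mice. Every tumor mouse was below every vehicle mouse there, where 3.38% of the panel had no overlap in either direction, and the difference was -0.47 (SE 0.16, limma unadjusted p = 0.00837, adjusted p = 0.806). At mid-light in HYP it was 3.57, 3.62, 3.7, 3.74 and 3.95 in tumor mice and 3.32, 3.43, 3.83 and 3.95 in vehicle mice, a difference of 0.09. In HPC the mid-dark difference was -0.34 (95% interval -0.82 to 0.14) and in BS 0.27 (-0.13 to 0.66). Both moved by over 1.5 times without single mice. The HPC difference was -0.16 without tumor mouse 23 and -0.53 without tumor mouse 7, and the BS difference was 0.076 without vehicle mouse 32 and 0.39 without vehicle mouse 4. The BS difference was 0.062 without the samples of low purity ratio.

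**Figure D3:**
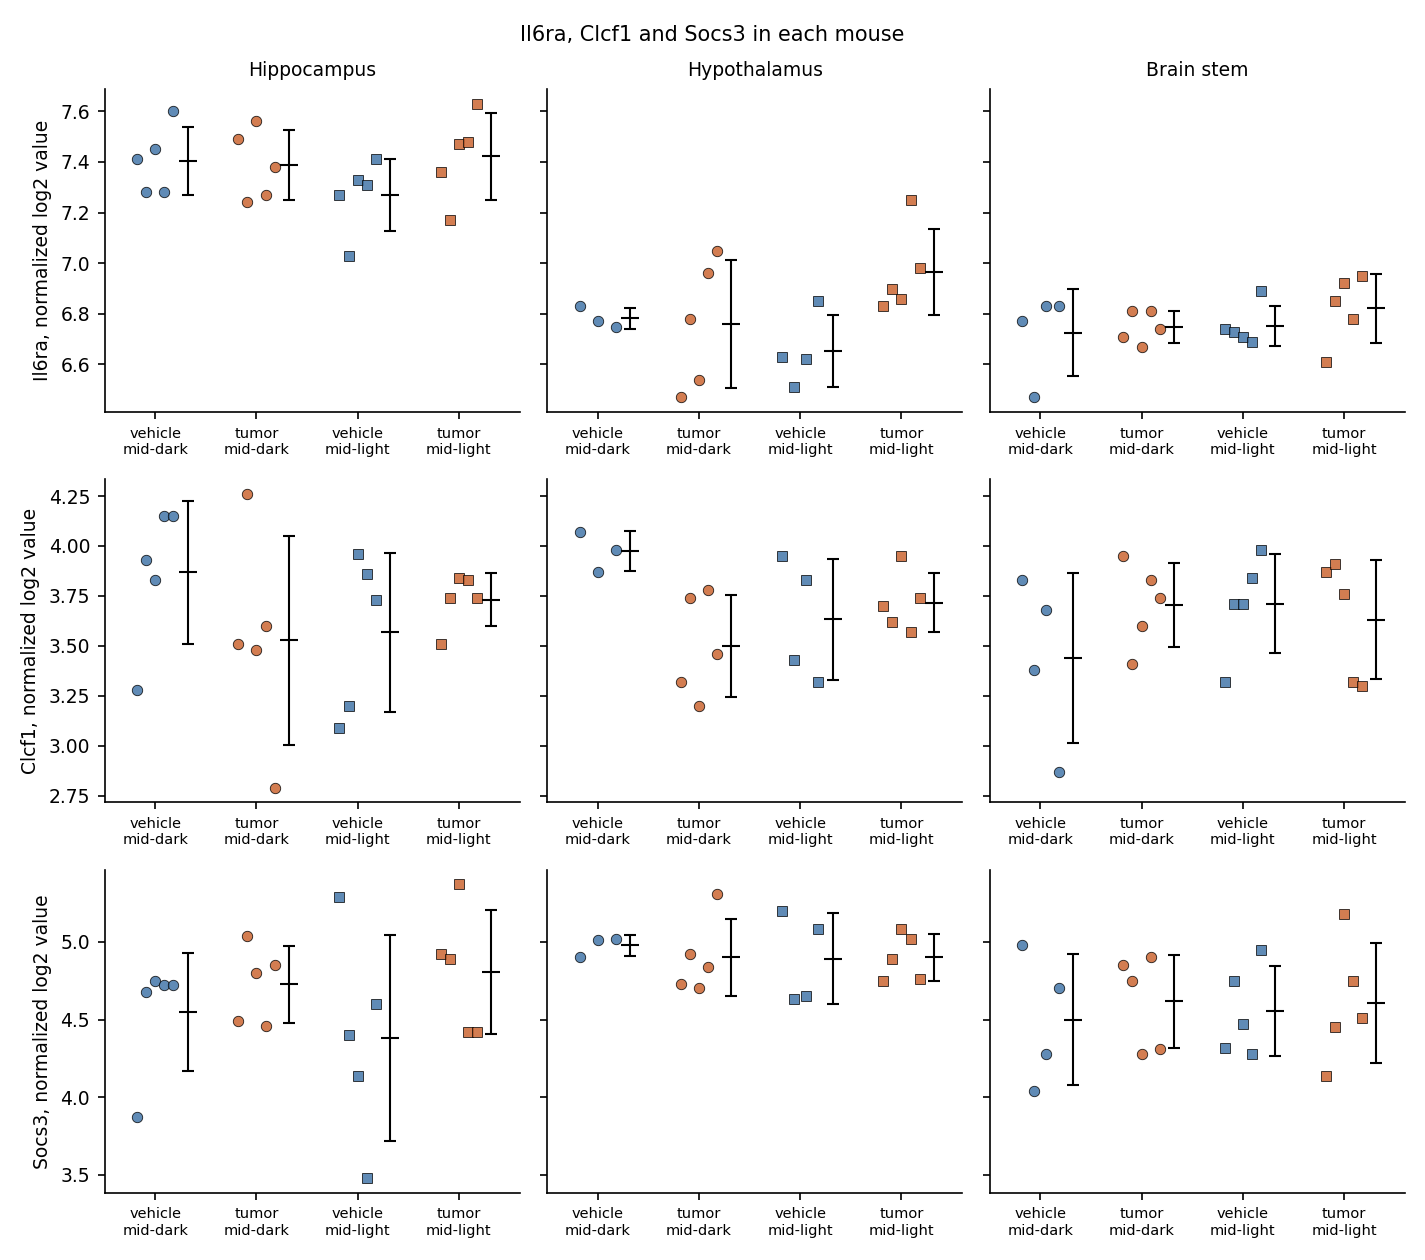
Normalized log2 values of Il6ra, Clcf1 and Socs3 (top to bottom) in each mouse of hippocampus, hypothalamus and brain stem (columns), drawn as for Osmr, with group means and SDs and a vertical axis for each gene. The Il6ra points of hippocampus stand above those of both other regions, while tumor and vehicle points of all 3 genes mostly overlap.

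Across regions Osmr was lowest in HYP. Its mean was 7.24 in HPC (SD 0.253), 7.06 in HYP (SD 0.22) and 7.3 in BS (SD 0.283). HPC exceeded HYP by 0.2 (SE 0.06, limma adjusted p = 0.00243) and BS exceeded HYP by 0.24 (SE 0.06, limma adjusted p = 0.000358), while HPC and BS differed by -0.04 (95% interval -0.16 to 0.07). Osmr was higher in HPC than in HYP in 13 of 17 mice and higher in BS than in HYP in 13 of 16. Over the 12 tests of a member between 2 regions, 6 passed, 2 each for Osmr, Il6ra and Socs3, where the panel had 71.7%, 76.6% and 66.5% of its genes called in the 3 comparisons.

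The hour of collection moved no member past the test. With tumor status averaged, mid-dark minus mid-light was between -0.08 and -0.03 for Osmr, between -0.05 and 0.05 for Il6ra, between -0.1 and 0.06 for Clcf1 and between -0.02 and 0.05 for Socs3 over the 3 regions, with limma adjusted p of 0.754 or more. The panel had 5.59% of its genes called in HPC, 2.34% in HYP and 4.94% in BS in this comparison. Among vehicle mice alone 2.34% was called in HPC, 0.26% in HYP and 1.3% in BS, and among tumor mice 1.04%, 1.04% and 0.78%. None of the 24 tests of a member within vehicle or tumor mice passed after adjustment or at a limma unadjusted p of 0.05, which 10.9% of such tests did on the panel. The largest of the 24 was that of Clcf1 in vehicle HYP, 0.34 (limma unadjusted p = 0.0541, adjusted p = 0.711).

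Other genes of the pathway were read from a list of 37 gp130 and JAK-STAT genes, of which only 3 were on the panel. The receptor gp130 itself and Stat3 were on the list but not on the panel, so most of the pathway was not measured. Ptpn6, a phosphatase that limits cytokine receptors, differed by 0.03 over the regions (limma adjusted p = 0.922). Ptprc, the leukocyte phosphatase CD45, differed by 0.06 (limma adjusted p = 0.85). Neither passed the test.

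The genes that STAT3 is known to induce, with acute-phase genes, formed a list of 21 panel genes, chosen with earlier results of these data known and so no independent evidence of direction. Over the 3 regions 5 of the 21 rose and 1 fell, where 2.34% of the panel was called. Lcn2, the iron-binding acute-phase protein lipocalin 2, rose by 3.23 (SE 0.22, limma adjusted p = 4.69e-16), and Lrg1, a secreted glycoprotein of the acute phase, by 0.66 (SE 0.1, limma adjusted p = 1.66e-05). Il1r1, the interleukin-1 receptor, rose by 0.34 (SE 0.07), Cdkn1a, a cell-cycle inhibitor, by 0.19 (SE 0.05) and Bcl2l1, which protects cells from apoptosis, by 0.09 (SE 0.02). Hspb1, a small heat shock protein, fell by 0.3 (SE 0.07, limma adjusted p = 0.0107). The other 15 did not pass, among them Serpina3n, a marker of reactive astrocytes, at 0.02, and Timp1, a protease inhibitor that oncostatin M induces, at -0.16. The median of the list was 0.03, against -0.01 for all genes.

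By region, 3 of the 21 rose in BS (Lcn2, Lrg1 and Il1r1) and 1 in each of HPC and HYP (Lcn2), where 1.04%, 0.52% and 0.26% of the panel was called. The medians of the list were 0.04 in BS, 0.01 in HPC and 0.07 in HYP. The other cytokine receptors of the panel gave a second comparison. Of 18, 1 rose over the 3 regions, Il1r1, which is also on the list above, and their median difference was 0.01. Osmr and Il1r1 were thus the receptors called over the regions, of the 18 and the 2 among the members. The rise of Il1r1 was not seen in every region. With phases averaged it differed by 0.009 in HPC (SE 0.12) and 0.4 in HYP (SE 0.13), and passed in BS alone.

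**Figure D4:**
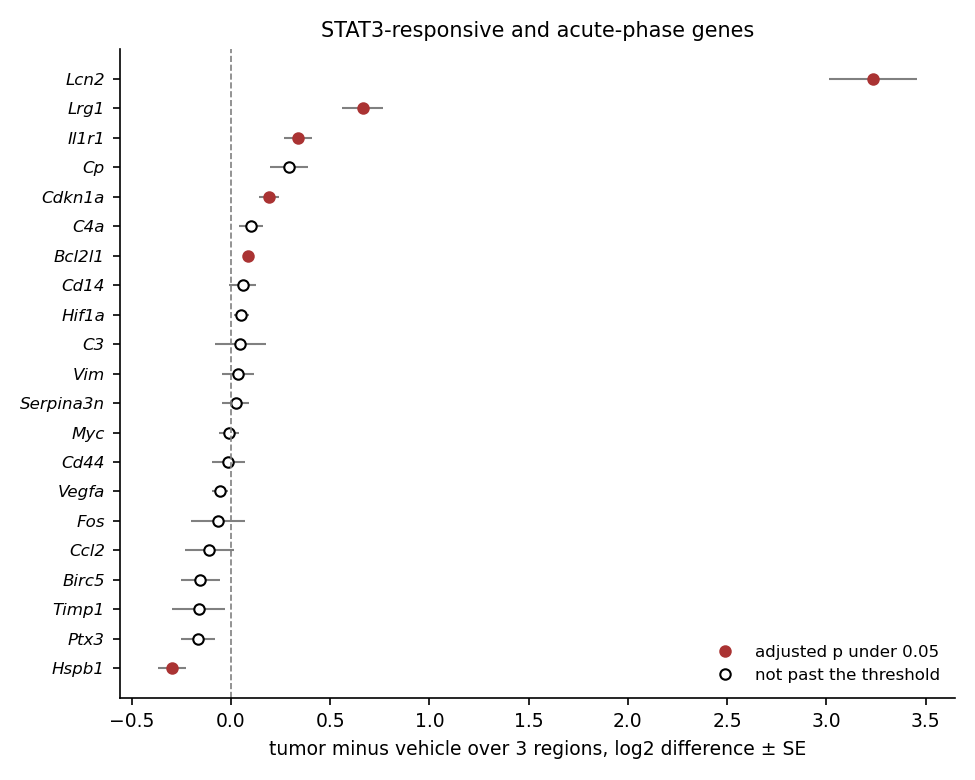
Tumor minus vehicle difference over the 3 regions, in log2 units with its SE (horizontal axis), of the 21 STAT3-responsive and acute-phase genes; filled red points passed a limma adjusted p of 0.05. Lcn2 stands apart at 3.23 and 15 genes did not pass.

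The genes most like each member were found by Pearson r over the 56 samples after each region's mean was subtracted, as a description. The samples share a normalization and, within a mouse, the animal, and tumor and vehicle samples form separate clusters of Lcn2 in HPC and BS. Ly6a also parted them in HYP, at 7.37 to 7.94 in tumor mice and 6.75 to 7.3 in vehicle mice. In BS the Ly6a ranges met at 7.75, and in HPC they overlapped. Osmr was most like Lcn2 (r = 0.718), Il1r1 (0.687) and Ly6a (0.611), the last an endothelial surface protein. With the group means subtracted too, the same 3 values were 0.319, 0.545 and 0.071, so of the 3 Il1r1 varied with Osmr most closely among mice of a group. Lcn2 was 6.45 to 8.94 in tumor BS and 3.41 to 5.12 in vehicle BS, with no overlap, and 5.22 to 8.36 and 3.38 to 5.86 in HYP, where the groups overlapped. In BS Il1r1 was 7.36 to 8 in tumor mice (median 7.69) and 6.86 to 7.39 in vehicle mice (median 7.04), and in HPC it was 8.59 to 9.73 and 9.01 to 9.51.

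**Figure D5:**
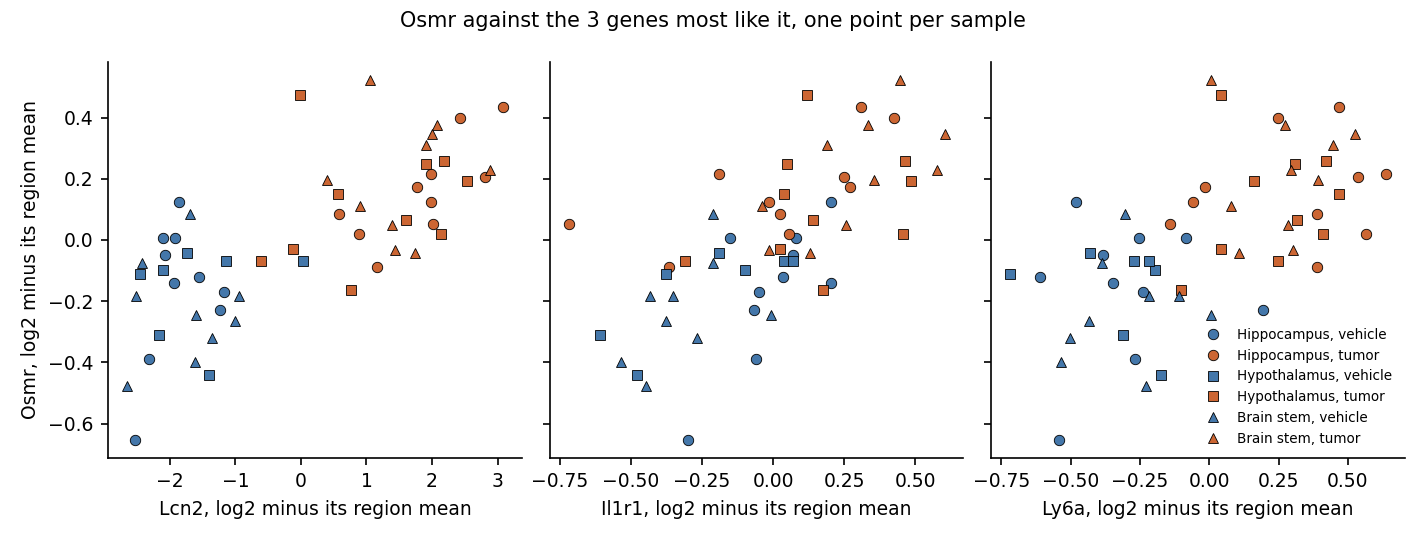
Osmr (vertical axis) against Lcn2, Il1r1 and Ly6a (horizontal axes), each as log2 value minus the mean of its region, with 1 point for each of the 56 samples (blue, vehicle; orange, tumor; circles, hippocampus; squares, hypothalamus; triangles, brain stem). Along Lcn2 tumor and vehicle points part in hippocampus and brain stem and meet in hypothalamus, while along Il1r1 they run into each other. Along Ly6a they part in hypothalamus, meet in brain stem and overlap in hippocampus.

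The other members had weaker likenesses. Il6ra was most like Csf2rb (r = 0.455), a receptor chain shared by other cytokines, Ifitm2 (0.43), an interferon-induced membrane protein, and Tgm2 (0.425), a transglutaminase. Socs3 was most like Aars (0.41), a tRNA synthetase, Lig1 (0.405), a DNA ligase, and Sesn2 (0.392), a stress-response gene. Clcf1 was most like Tlr7 (0.369), Itgam (0.343) and Myc (0.34). No member was among the 3 nearest genes of another.

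Whether the members varied together between mice of 1 group was tested in each region. Of 18 pairs, none passed after Benjamini-Hochberg adjustment by Pearson or Spearman correlation, and 3 had an unadjusted permutation p under 0.05 by both. Il6ra and Socs3 had r = 0.636 in BS (Spearman 0.599, 19 mice, permutation p = 0.0142, adjusted 0.146) and r = 0.6 in HYP (Spearman 0.608, 17 mice, permutation p = 0.0292, adjusted 0.175). Without the 2 samples farthest from the median of Il6ra these were 0.642 and 0.571 (permutation p = 0.0226 and 0.125). Osmr and Clcf1 had r = 0.553 in HYP (Spearman 0.578, 17 mice, permutation p = 0.0162, adjusted 0.146) and 0.744 without the 2 samples farthest in Osmr. In HPC the 6 pairs lay between -0.152 and 0.231.

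Spleen mass and tumor mass were set against each member in tumor mice. Spleens weighed 0.184 to 0.269 g in tumor mice and 0.107 to 0.135 g in vehicle mice, and tumors 2.31 to 5 g in total per mouse. Of 24 relations none passed after adjustment, and 2 had an unadjusted exact permutation p under 0.05 by both correlations. Socs3 in BS had the closest relation with spleen mass (r = 0.761, Spearman 0.736, 10 mice, exact permutation p = 0.0103, adjusted 0.208), with r = 0.83 at mid-dark and 0.797 at mid-light, and r = 0.891 without the 2 mice farthest from the median. Socs3 in HPC had r = 0.692 with tumor mass (Spearman 0.644, 10 mice, exact permutation p = 0.0174, adjusted 0.208), 0.846 at mid-dark and 0.912 at mid-light, and 0.743 without the 2 farthest mice. Each r within a phase rests on 5 mice. Neither relation held for the other mass: Socs3 had r = 0.03 with tumor mass in BS and 0.033 with spleen mass in HPC. Those 2 values pooled phases of opposite sign. With tumor mass in BS, r was -0.78 at mid-dark and 0.54 at mid-light, and with spleen mass in HPC -0.67 and 0.34. Other panel genes were not set against the masses here, so no panel share is given. Osmr had r from -0.264 to 0.492 over the 6 relations with either mass, phases pooled. Within phases its sign could differ, as with spleen mass in HPC, where r was -0.72 at mid-dark and 0.75 at mid-light.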

How the data were processed

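RNA of hippocampus, hypothalamus and brain stem was measured on the nanoString nCounter mouse neuroinflammation panel. Per the labels, the authors subtracted background, scaled to positive controls and to panel content in nSolver, removed outlying samples by their raw data, and quantile normalized the rest in Partek. The deposited values were taken as log2 values from their range, since the base was not stated. Raw counts were not used here, so depth was unknown and no counting interval was given. The number of mice limits the precision.

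Groups came from the labels. Within a region, limma 3.58.1 (R 4.3.3) fitted the 4 groups of tumor status and phase over the whole panel, with empirical Bayes variances and Benjamini-Hochberg adjustment at 0.05. Regions were compared in a single fit of 56 samples with the mouse as a random block, since a mouse number marks the same animal in each region (consensus correlation 0.136). Single values were also tested by permutation of tumor status within phase, and correlations by permutation within groups, exactly or with 100000 draws (numpy 2.4.6). Likeness genes were the 3 with the highest Pearson r. The members and lists were chosen with earlier results of these data known. The fits were tested on simulated data with independent noise in each sample, so the mouse block was not tested. The pass mark was set on planted changes of 1 log2 unit, larger than any Osmr difference between tumor and vehicle mice. Alternatives left out each mouse or samples of low RNA purity, added RNA purity or Ttr as a covariate, filtered low genes, or changed the test or the block. A result of 1 listed pathway gene is not reported here.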

Additional observations from a re-analysis of the deposited data

Results flagged for a closer look

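Il6ra of vehicle mouse 30 in BS at mid-light, 6.89, stood apart from the other 4 mice of its group, the nearest at 6.74. Socs3 of vehicle mouse 4 in HPC at mid-dark, 3.87, stood below the other 4, the nearest at 4.68. These were the 2 values found in 44 groups of a member in a region, tumor status and phase, and chance flags about 1 in 20 groups.

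The Clcf1 difference between tumor and vehicle HYP was -0.47 at mid-dark and 0.09 at mid-light, an interaction of -0.56 (SE 0.21, limma unadjusted p = 0.0183, adjusted p = 1). It did not hold over the panel.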

How the results depend on the processing

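Osmr kept its direction under every alternative that gave a value, in each region and over the regions, where it was 0.33 to 0.35, or 0.31 to 0.37 without single mice, and passed limma throughout. In BS with phases averaged the call was lost without the 5 samples of purity ratio under 1.8 (0.38), an alternative chosen after seeing the data, and without single mice the difference was 0.40 to 0.47. The BS mid-light call was lost with ordinary p-values (0.51), the purity-ratio covariate (0.51), the 2 groups alone (0.51), those 5 samples out (0.53) and Ttr as a covariate, also added later (0.51), and it was 0.45 to 0.59 without single mice. The cause was not tested. By an exact permutation test of the gene alone, Osmr in HPC (0.32) and HYP (0.28) also passed, without adjustment.

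Of the 12 tests with phases averaged, 1 passed in limma, 3 with ordinary unadjusted p, 3 by exact permutation and 0 without the low-ratio samples. The 3 were in both cases Osmr in the 3 regions, which come from the same mice, and the permutation test was run for the members only. Of the 24 by phase, 1 passed, but 0 with ordinary adjusted p, the purity-ratio covariate, the 2 groups alone, the low-ratio samples out or Ttr, 7 unadjusted, and 0 to 1 without single mice. Of 12 interactions 0 passed, and 1 unadjusted. At a limma unadjusted p of 0.05 the panel had 6.67% with phases averaged, 5.94% by phase and 4.12% of interactions. With the mouse as a random replicate block Osmr differed by 0.35 over the regions, and by 0.35 with no block. With the mouse as a fixed block 0 of 12 passed, since the difference over the regions could not be fitted. Region calls were 6 of 12 with a random, fixed or no block.

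Signs turned for small differences. With the purity-ratio covariate Il6ra was 0.0063 in HPC and -0.039 in BS at mid-dark, and Socs3 -0.032 in BS at mid-dark. Without the low-ratio samples Clcf1 was -0.016 in BS. With Ttr, Clcf1 was 0.16 for HPC minus HYP and -0.079 for HYP minus BS. Without single mice, Clcf1 ranged from -0.18 to 0.0053 in HPC with phases averaged, -0.016 to 0.19 in HYP at mid-light, -0.0026 to 0.16 in BS with phases averaged, -0.18 to 0.0021 in BS at mid-light, -0.068 to 0.028 for HPC minus HYP and -0.013 to 0.12 for HPC minus BS. Without single mice, Il6ra ranged from -0.056 to 0.034 in HPC at mid-dark, -0.095 to 0.0503 in HYP at mid-dark and -0.062 to 0.059 in BS at mid-dark. Without single mice, Socs3 ranged from -0.085 to 0.019 in HYP with phases averaged, -0.077 to 0.12 in HYP at mid-light, -0.036 to 0.28 in BS at mid-dark, -0.095 to 0.17 in BS at mid-light and -0.027 to 0.13 for HPC minus BS. A mean of at least 5 left Clcf1 and Socs3 untested.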
